A study of Mus musculus with 6 samples.

Results

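The S-phase DNA replication genes described here are 54 mouse genes for the enzymes, loading factors and regulators that copy DNA, together with genes that supply its building blocks. They were chosen as a list of names with a minimum of 1 CPM in 3 or more of the 6 libraries, where CPM is a gene's reads scaled to a library of 1000000 reads. All 54 were found among the 25655 genes of the tables, all 54 passed that minimum, and each was at 1 CPM or more in all 6 libraries. With no gene brought in by a high level in a single group, they are 54 of the 10590 genes that could be tested.

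The cells were CD8 T cells from the spleens of C57BL/6 females, either wild type (WT) or Utx knockout (Utx KO), with 3 samples of each that the labels call biological replicates. Utx, the product of Kdm6a, removes methyl groups from lysine 27 of histone H3. Naive cells of both genotypes were cultured alike, with antibodies to TCR-β and CD28 plus IL-2 for 2 days and with IL-2 alone for 3 more days, and RNA was taken at day 5. Not given in the sources used here are the ages of the mice, how the gene was deleted and which part of it. Nor is it stated whether the replicates were separate animals. The p-values use the spread among these samples, partly pooled over all genes tested, and cannot be said to measure the spread between animals.

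Recovered totals ran from 1619085 to 2529113 reads per library, and a count of 0 allows up to 3 reads, which are worth 1.19 to 1.85 CPM, for counting error only. Kdm6a was at 44.3, 49.3 and 53.6 CPM (WT) and 27.8, 39.4 and 31.5 CPM (Utx KO). It fell by 0.57 on the log2 scale (limma adjusted p = 0.0123), a call lost with DESeq2 (0.0985) or when 1 of these was left out: WT replicate 2 or 3 (0.0521 and 0.0710) and Utx KO replicate 1 (0.0526). A 3' tag outside the deleted part would not test the label. The labelled cell type was checked against markers. Cd8a lay between 239 and 301 CPM and Cd3d between 532 and 679.6 CPM, while Cd4, the B-cell markers Cd79a, Ms4a1, Pax5 and Blk and the myeloid markers Lyz2, Cd14 and Itgam were listed at 0 in all 6 libraries. Trac, Trbc1 and Trbc2 were listed at 0 as well, so a 0 for receptor segments, Trdc included, says nothing about the cells. Some other markers of CD4 and regulatory T cells, B cells and myeloid cells had reads in all 6 libraries. Foxp3 was at 6.79 to 10.4 CPM, Cd79b at 0.571 to 5.47 CPM and Cst3 at 63.6 to 79.9 CPM, and Zbtb7b had 7 to 18 reads. The markers at 0 therefore do not show that such cells were absent.

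Replication begins with licensing, when ORC, Cdc6 and Cdt1 load rings of Mcm2 to Mcm7 onto origins in G1. The rings become active helicases in S phase when Cdc45 and the GINS complex join them. Polymerase alpha with primase starts each strand, polymerases epsilon and delta extend it around the Pcna clamp that RFC loads, and Fen1 and Lig1 join the Okazaki fragments. Cyclin E and E2F factors promote entry into S phase, and activated CD8 T cells are known for rapid division that draws on all of these genes.

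Many promoters of such genes carry binding sites for E2F factors. RefSeq start sites (GRCm38.p6) with a window of 250 bases before and 50 after were at hand for 44 of the 54 genes. An E2F motif, spelled TTTCCCGC, TTTGGCGC, TTTCGCGC or TTTGCCGC on either strand, occurred in 17 of these 44 (38.6%), against 704 of 27025 genes with such a window (2.60%). CCAAT, the motif of NF-Y, occurred in 26 of 44 (59.1%) and in 41.1% of all genes, and the E-box CACGTG in 7 of 44 (15.9%) and 8.09%. The cell-cycle homology region typical of mitotic genes, spelled TTTGAA or TTCGAA, occurred in 8 of 44 (18.2%) and 21.7%. These are matches of letters, not measured binding. The following lines show 9 matches with the motif in capitals and up to 10 bases on each side, read 5′ to 3′ on the gene's strand. They were picked to show helicase ring subunits (Mcm5, Mcm6, Mcm7), loading factors (Orc1, Cdc6), Dtl of the checkpoint group and Pole2 of the polymerases beside Clspn and E2f2, whose RNA changed in opposite directions.

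Mcm6 (chr1:128359798-128359825, reverse strand): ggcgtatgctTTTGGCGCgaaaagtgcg
Mcm5 (chr8:75109346-75109373, forward strand): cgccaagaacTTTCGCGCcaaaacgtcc
Mcm7 (chr5:138171850-138171877, reverse strand): ggtgacgacgTTTCGCGCcaatttcggt
Orc1 (chr4:108579417-108579444, forward strand): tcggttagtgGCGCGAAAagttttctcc
Cdc6 (chr11:98908003-98908030, forward strand): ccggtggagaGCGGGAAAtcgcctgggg
Dtl (chr1:191575535-191575562, reverse strand): gtgacgtcagTTTGGCGCggagtttggc
Pole2 (chr12:69228163-69228190, reverse strand): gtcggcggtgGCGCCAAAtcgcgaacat
Clspn (chr4:126556991-126557018, forward strand): ccgcgtctggGCGCGAAAgctcgaactt
E2f2 (chr4:136172303-136172323, forward strand): cggcatatagTTTGGCGCtaa

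The Mcm6 and Mcm5 matches begin 110 and 153 bases before the start. That of Orc1 begins 27 before it, that of Clspn 21 after it and that of E2f2 39 after the first of its RefSeq starts. Genes with the E2F motif had a median log2 fold change (Utx KO minus WT) of −0.11 over 17 genes, and those without it −0.11 over 27. Of the 17, Clspn fell and E2f2 rose, and the other 15 did not pass the test. Over all genes tested, 5.51% fell and 5.28% rose.

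Of the 54 replication genes, Clspn, Pcna, Mcm4, Rfc2 and Ccne1 fell in Utx KO and E2f2 rose, at a limma adjusted p under 0.05 over all genes tested. Those 6 calls are 11.1% of the 54 genes, where 10.8% of all genes tested were called, so the number called is near the background. By direction, 5 falls are 9.26% against 5.51% of all genes, and 1 rise is 1.85% against 5.28%. Differences were small. Fitted log2 fold changes of log2(CPM + 1) ran from −0.45 (Gins3) to 0.59 (Pole2), and for 40 genes the 95% confidence interval lay within 0.5 of 0 on both sides. Over all 10590 genes tested, 4179 had such an interval. As a description, 38 of 54 genes (70.4%) were fitted below 0, against 49.0% of all genes. Their median was −0.12, against 0.0067 over all genes. The libraries of the groups did not overlap for 17 genes that were lower in Utx KO and 3 that were higher (31.5% and 5.56%), where the background is 12.6% and 14%.

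**Figure D1:**
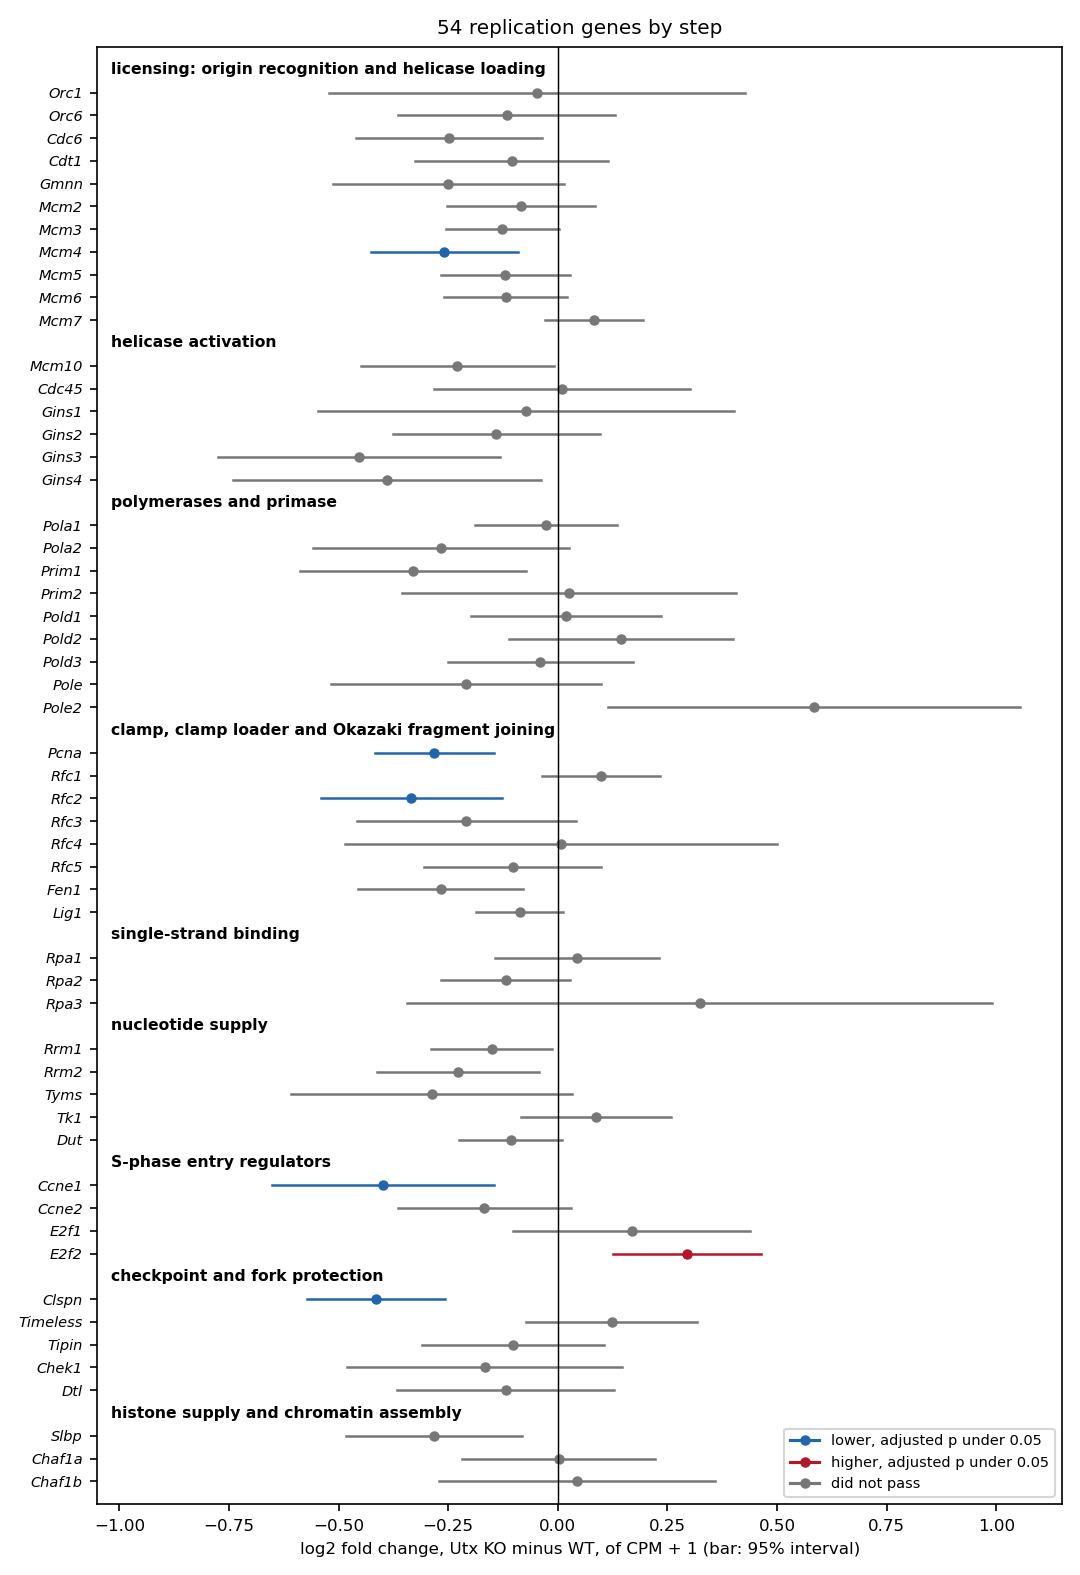
Fitted log2 fold change (Utx KO minus WT, x axis, of CPM + 1) of each of the 54 genes with its 95% interval, grouped by step. The 5 blue genes fell, the red gene (E2f2) rose, and 48 grey genes did not pass the test.

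Summed over the 54 genes, the level was 7659.6, 7857 and 7839 CPM (WT) and 7174, 7339 and 7334 CPM (Utx KO). Every Utx KO library lay below every WT library, and the Utx KO mean was 0.935 of the WT mean. In bulk RNA, fewer cells in S phase and less of these RNAs per cell cannot be told apart. Summed levels of helicase activation genes (0.858 of WT) and of checkpoint genes (0.882) were lowest relative to WT. Those of the histone supply (0.919), nucleotide supply (0.924), clamp and joining (0.926) and licensing genes (0.946) also had groups that did not overlap. The polymerases (0.969), single-strand binding proteins (0.963) and S-phase entry regulators (1.02) had groups that overlapped. Sums weigh the genes with most reads, and they were not tested. The mean histone supply sum went from 201 to 185 CPM. Of its 3 genes only Slbp was fitted below 0, from a mean of 99.4 to 81.6 CPM. The mean checkpoint sum went from 494 to 436 CPM, and Clspn alone went from 201 to 150.2 CPM, although 4 of its 5 genes were fitted below 0. Marker lists that moved alongside were those of CD8 T cells, with 7 of 10 tested (1852 to 1941 CPM for WT, 2146 to 2203 CPM for Utx KO, of which Cd3d, Cd3e and Cd8b1 rose), B cells (3.23 to 6.57 CPM for WT, 1.14 to 3.09 CPM for Utx KO, 4 of 9 markers at 0) and erythroid cells and platelets (0 to 0.461 CPM for WT, 2.28 to 3.09 CPM for Utx KO, 5 of 8 at 0). Those of CD4 and regulatory T cells (11.5 to 17.5 CPM for WT, 11.1 to 13.5 CPM for Utx KO, Cd4 at 0), NK cells (0.791 to 3.83 CPM for WT, 1.19 to 3.43 CPM for Utx KO, Ncr1 at 0) and myeloid and dendritic cells (68.7 to 82.2 CPM for WT, 68.0 to 82.8 CPM for Utx KO, 9 of 13 at 0 and nearly all of it Cst3) overlapped, and the gamma-delta list had at most 1 read in a library. Cd3d kept its call under all 15 alternatives. Cd3e lost it with DESeq2 or without WT replicate 1, and Cd8b1 with DESeq2 or with WT replicate 1 or 2 or Utx KO replicate 1 or 2 left out (highest adjusted p 0.0748 and 0.149). Of the 3' end pieces of Cd8b1, 34.3% also occur in other gene models. The B-cell and erythroid lists rest on few reads and had 1 tested gene each, neither called. Cd79b had 9, 6 and 10 reads (WT) and 4, 1 and 3 reads (Utx KO) (limma adjusted p = 0.0970). Hbb-bt had 0, 0 and 0 reads (WT) and 3, 3 and 4 reads (Utx KO) (limma adjusted p = 0.0528). The part of the cells of all these lists in the results was not tested.

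**Figure D2:**
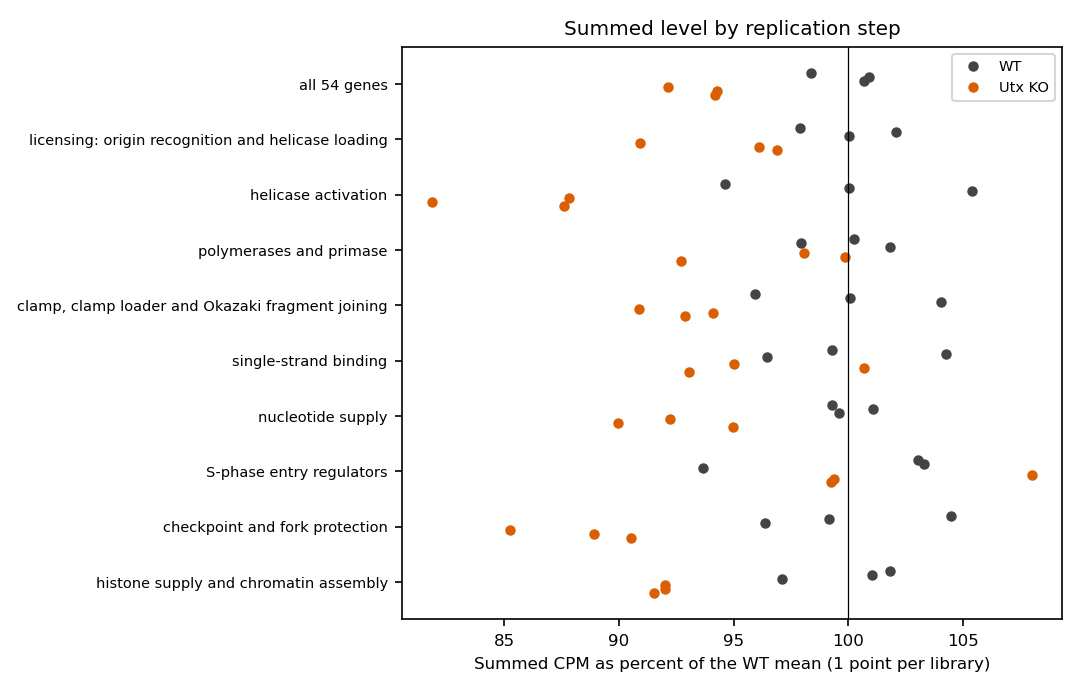
Summed CPM of all 54 genes and of each step in every library, as a percent of the WT mean (x axis). For all 54 genes the 3 Utx KO libraries lie below the 3 WT libraries, and the entry regulators, polymerases and single-strand binding proteins overlap.

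Among the 11 licensing genes, Mcm4 fell (9.09%, against 5.51% of all genes tested), and none of the others passed. Mcm4 encodes a subunit of the helicase ring, and Mcm4 (ENSMUSG00000022673, chromosome 16, 15623897 to 15637400, reverse strand) was at 179.5, 193 and 206 CPM for WT replicates 1 to 3 and 149.7, 158 and 175 CPM for those of Utx KO. All 3 Utx KO libraries were below all WT libraries, although Utx KO replicate 3 came within a few CPM of WT replicate 1. The log2 fold change was −0.26 (limma adjusted p = 0.0406, SE 0.081). The call was lost with a pseudocount of 0.1 (0.0534), with DESeq2 (0.165) or when 1 of these was left out: WT replicate 2 or 3 (0.120 and 0.183) and Utx KO replicate 1 or 2 (0.123 and 0.113), and its lowest adjusted p over 15 alternatives was 0.0174.

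The ring's other subunits lay closer to WT. Mcm2 was at 136, 147 and 142 CPM (WT) and 139, 129.7 and 132 CPM (Utx KO), so 1 Utx KO library fell inside the WT range. Its log2 fold change of −0.083 had a 95% interval of −0.25 to 0.085 (limma adjusted p = 0.612). Mcm3, Mcm5 and Mcm6 were fitted at −0.13, −0.12 and −0.12 (limma adjusted p = 0.233, 0.343 and 0.321), and only Mcm5 had groups that did not overlap. Mcm7 was the 1 licensing gene fitted above 0, at 0.083 (95% interval −0.029 to 0.19). However, 40.0% of the 50-base pieces in the last 300 bases of its protein-coding transcripts also occur in another gene model, Gm5487. Its reads could therefore be split, though which of these ends was read is not known. The ratio of Mcm4 to Mcm7 within each library, which no scaling can alter, was 0.317, 0.330 and 0.339 in WT and 0.254, 0.257 and 0.267 in Utx KO. Every Utx KO ratio was below every WT ratio, a pair picked after its values were seen and not tested.

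The loading factors did not pass. Cdc6, the ATPase that helps ORC load the ring, was at 83.0, 83.9 and 77.7 CPM (WT) and 69.9, 66.3 and 69.2 CPM (Utx KO). Its groups did not overlap, but the log2 fold change of −0.25 had a limma adjusted p of 0.139. Cdt1, which brings the ring to ORC, was fitted at −0.11, and geminin (Gmnn), which blocks Cdt1 after S phase begins, at −0.25 (95% intervals −0.33 to 0.12 and −0.51 to 0.015). Of the origin recognition subunits, Orc6 was fitted at −0.12 and Orc1 at −0.047, the latter with a wide interval of −0.52 to 0.43 at 10.9 to 15.4 CPM per library.

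None of the 6 helicase activation genes passed, although 5 were fitted below 0 and 3 had an unadjusted limma p under 0.05. Over all 10590 genes tested, 2408 had such a p. Gins3 and Gins4 encode subunits of the GINS complex, which holds the ring to the leading-strand polymerase. Gins3 was at 36.8, 36.9 and 49.2 CPM (WT) and 30.6, 26.3 and 31.5 CPM (Utx KO). Each Utx KO library was below each WT library, with a log2 fold change of −0.45 (95% interval −0.78 to −0.13, limma adjusted p = 0.0656). Gins4 was at 38.7, 43.8 and 43.8 CPM (WT) and 39.3, 22.8 and 35.8 CPM (Utx KO), where Utx KO replicate 2 was far below its fellows and replicate 1 was inside the WT range (−0.39, limma adjusted p = 0.167). Mcm10, a factor needed to start the helicase, was fitted at −0.23 with groups that did not overlap (limma adjusted p = 0.200). Cdc45, the third part of the active helicase, was at 33.2, 39.2 and 42.1 CPM (WT) and 38.1, 37.7 and 38.9 CPM (Utx KO), and its log2 fold change of 0.0093 had an interval of −0.28 to 0.30. Gins1 and Gins2 were fitted at −0.072 and −0.14.

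None of the 9 polymerase and primase genes passed, and they were split in direction, with 5 fitted below 0 and 4 above. Prim1, the catalytic subunit of primase, was at 53.8, 58.1 and 64.0 CPM (WT) and 50.8, 45.1 and 43.2 CPM (Utx KO). The groups did not overlap, with a log2 fold change of −0.33 (95% interval −0.59 to −0.073, limma adjusted p = 0.0991). Pola2, the accessory subunit of polymerase alpha, was at 40.3, 44.7 and 44.9 CPM (WT) and 33.4, 41.1 and 33.4 CPM (Utx KO), so that Utx KO replicate 2 overlapped WT (−0.27, limma adjusted p = 0.272). The catalytic subunit Pola1 (−0.027, 95% interval −0.19 to 0.14) and the large primase subunit Prim2 (0.026) lay near 0.

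Pole2, the second subunit of the leading-strand polymerase epsilon, went the other way. It was at 12.7, 11.98 and 8.75 CPM (WT) and 15.5, 16.6 and 19.1 CPM (Utx KO), with every Utx KO library above every WT library. The log2 fold change was 0.59 (95% interval 0.12 to 1.06, limma adjusted p = 0.111), and 54.6% of the pieces of its 3' end also belong to the overlapping gene model Gm49384, so these reads may not all be its own. The catalytic subunit Pole was fitted at −0.21. Pold2, a subunit of the lagging-strand polymerase delta, was at 64.8, 49.3 and 66.2 CPM (WT) and 69.1, 67.4 and 61.8 CPM (Utx KO), with overlapping groups and a log2 fold change of 0.15. Pold1 and Pold3 were fitted at 0.018 and −0.040 (95% intervals −0.20 to 0.24 and −0.25 to 0.17).

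Among the 8 clamp, clamp loader and joining genes, Pcna and Rfc2 fell (25% of these few genes, against 5.51% of all genes tested). Pcna encodes the sliding clamp that holds the polymerases on DNA. Pcna (ENSMUSG00000027342, chromosome 2, 132249162 to 132253314, reverse strand) was at 342, 335 and 345 CPM for WT replicates 1 to 3 and 292, 294 and 257 CPM for those of Utx KO. The WT libraries were within 10 CPM of each other and all 3 Utx KO libraries were below them. The mean went from 341 ± 4.75 to 281 ± 20.6 CPM (SD, n = 3), a fitted ratio of 0.823 (log2 fold change −0.28, SE 0.066, limma adjusted p = 0.00529). The call held under all 15 alternatives, with adjusted p from 0.00264 to 0.0461, the highest without Utx KO replicate 3. The 250 bases before its RefSeq start (chr2:132253181-132253430, GRCm38.p6, reverse strand) are shown because its call was among the 2 that held throughout. The capitals mark a CCAAT motif on the opposite strand, and none of the 4 E2F spellings occurs in the window.

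Pcna: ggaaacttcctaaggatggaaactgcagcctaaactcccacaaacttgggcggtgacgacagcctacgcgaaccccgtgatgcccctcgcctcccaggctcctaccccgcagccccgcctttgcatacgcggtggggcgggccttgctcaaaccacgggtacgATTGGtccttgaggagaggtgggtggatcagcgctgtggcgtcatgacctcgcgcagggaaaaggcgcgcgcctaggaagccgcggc

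RFC is the loader that opens the Pcna ring. Its subunit gene Rfc2 (ENSMUSG00000023104, chromosome 5, 134581366 to 134601805, forward strand) was at 97.3, 117 and 102 CPM for WT replicates 1 to 3 and 89.4, 81.7 and 79.1 CPM for those of Utx KO. Groups did not overlap, WT replicate 2 was the highest library, and Rfc2 fell by 0.33 on the log2 scale (limma adjusted p = 0.0312, SE 0.10). The call was lost with DESeq2 (0.201) or when 1 of these was left out: WT replicate 2 or 3 (0.209 and 0.0608) and Utx KO replicate 2 or 3 (0.0892 and 0.0999), the lowest of 15 alternatives being 0.0177. Rfc2 shares exon sequence with Lat2 on the opposite strand, and reads of the pair could be told apart only if strand was counted.

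The remaining loader and joining genes did not pass. Rfc1, the large loader subunit, was fitted at 0.10, Rfc3 at −0.21, Rfc4 at 0.0069 and Rfc5 at −0.10. The ratio of Rfc2 to Rfc1 within a library was 0.329, 0.372 and 0.337 in WT and 0.290, 0.255 and 0.225 in Utx KO, lower in every Utx KO library. This pair, too, was picked after its values were seen. Fen1, the nuclease that trims Okazaki fragments, was fitted at −0.27 with groups that did not overlap (limma adjusted p = 0.0623), and it passed only without Utx KO replicate 1 (0.0343). Lig1, the ligase that seals them, was fitted at −0.087, and its interval of −0.19 to 0.013 was the narrowest of the 54.

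Single-strand DNA at the fork is coated by RPA, and none of its 3 genes passed. Rpa2 was at 242, 262 and 237 CPM (WT) and 238, 233 and 212 CPM (Utx KO) (−0.12), and Rpa1 at 121, 115 and 115 CPM (WT) and 108, 129 and 126 CPM (Utx KO) (0.044), each with overlapping groups. Rpa3 had the fewest reads of the 54 genes, with 4.35, 8.76 and 4.92 CPM (WT) and 5.56, 10.9 and 6.79 CPM (Utx KO). Its interval of −0.34 to 0.99 includes 0, and a difference was not detectable at this depth.

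Among the 5 nucleotide supply genes, none passed, and 4 were fitted below 0. Ribonucleotide reductase makes deoxynucleotides from ribonucleotides. Its regulated subunit Rrm2 was at 141, 165 and 147 CPM (WT) and 136, 135 and 115 CPM (Utx KO), and its large subunit Rrm1 was fitted at −0.15. For both, the Utx KO libraries lay below the WT libraries. The log2 fold change of Rrm2 was −0.23 (95% interval −0.41 to −0.043), and the limma adjusted p was 0.115 for Rrm2 and 0.174 for Rrm1. For Rrm2, 14.1% of the 3' pieces also occur in the gene models Gm48445 and Gm48455. Thymidylate synthase (Tyms), which makes the thymidine precursor, was at 42.7, 53.0 and 37.8 CPM (WT) and 35.0, 42.8 and 30.9 CPM (Utx KO). Its groups overlapped, and the log2 fold change of −0.29 did not pass (limma adjusted p = 0.282). Dut, which removes dUTP, was fitted at −0.11. Thymidine kinase (Tk1), of the salvage route, was at 146, 139 and 144 CPM (WT) and 151, 141 and 165 CPM (Utx KO) and fitted at 0.086 (95% interval −0.085 to 0.26).

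The regulators of S-phase entry split, with Ccne1 falling and E2f2 rising. Each is 25% of only 4 genes, where 5.51% of all genes tested fell and 5.28% rose. Cyclin E1 activates Cdk2 at the start of S phase. Its gene Ccne1 (ENSMUSG00000002068, chromosome 7, 38097984 to 38107534, reverse strand) was at 58.5, 65.9 and 63.5 CPM for WT replicates 1 to 3 and 53.2, 45.1 and 43.9 CPM for those of Utx KO. Each Utx KO library was below each WT library (−0.40, SE 0.12, limma adjusted p = 0.0367). The call was lost with DESeq2 (0.285), with limma-voom (0.0531) or when 1 of these was left out: WT replicate 1, 2 or 3 (0.0565, 0.156 and 0.102) and Utx KO replicate 2 or 3 (0.111 and 0.117), and its lowest adjusted p over 15 alternatives was 0.0152. Cyclin E2 (Ccne2) was at 130.5, 121 and 106 CPM (WT) and 107, 110.2 and 99.4 CPM (Utx KO), with 2 Utx KO libraries inside the WT range (−0.17, limma adjusted p = 0.316). The ratio of Ccne1 to Ccne2 was 0.448, 0.544 and 0.601 in WT and 0.496, 0.409 and 0.441 in Utx KO, and these groups overlapped.

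E2F factors switch on genes of the S phase, and E2f2 belongs to the activating members. E2f2 (ENSMUSG00000018983, chromosome 4, 136172394 to 136196057, forward strand) was at 141, 144 and 127 CPM for WT replicates 1 to 3 and 178, 159.9 and 169 CPM for those of Utx KO. All Utx KO libraries were above all WT libraries (0.29, SE 0.082, limma adjusted p = 0.0200). The rise was lost with DESeq2 (0.134) or when 1 of these was left out: WT replicate 3 (0.112) and Utx KO replicate 1 (0.0620), with a lowest adjusted p of 0.0133 over 15 alternatives. E2f1, another activator, was at 41.1, 41.0 and 41.6 CPM (WT) and 51.2, 42.8 and 45.7 CPM (Utx KO). Its WT libraries were within 1 CPM of each other and below all Utx KO libraries. The log2 fold change of 0.17 did not pass (95% interval −0.10 to 0.44, limma adjusted p = 0.498). The third activator, E2f3, is in the list of further genes and fell (limma adjusted p = 0.0247). It was at 47.3 ± 4.65 CPM (WT) and 33.4 ± 2.65 CPM (Utx KO) (SD, n = 3), a difference of −0.49 on the log2 scale, with an adjusted p of up to 0.196 over 15 alternatives. The ratio of E2f3 to E2f2 was 0.345, 0.355 and 0.332 in WT and 0.204, 0.193 and 0.198 in Utx KO, with no overlap between groups, a pair also picked after its values were seen.

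**Figure D3:**
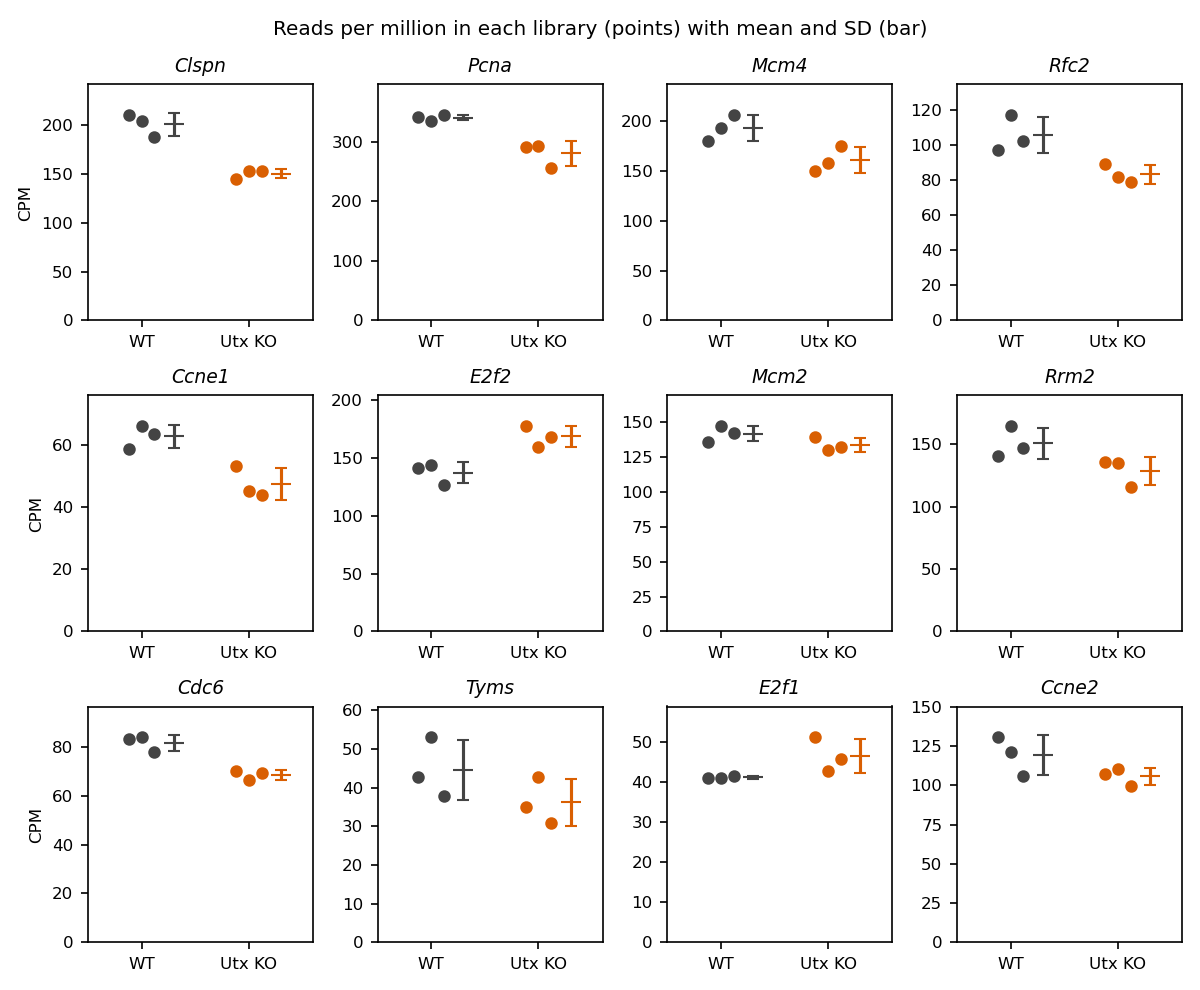
CPM (y axis, from 0) of 12 genes in each WT and Utx KO library (points), with the mean and SD of 3 libraries (bar). Clspn, Pcna, Mcm4, Rfc2 and Ccne1 are lower in every Utx KO library, E2f2 is higher, and Mcm2, Tyms and Ccne2 overlap.

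Clspn had the lowest adjusted p of the 54. Of 5 checkpoint and fork protection genes it alone fell (20%, against 5.51% of all genes tested). It encodes claspin, an adaptor through which the kinase Atr activates Chek1 at stalled forks. Clspn (ENSMUSG00000042489, chromosome 4, 126556935 to 126593903, forward strand) was at 210.0, 205 and 188 CPM for WT replicates 1 to 3 and 145, 153 and 153 CPM for those of Utx KO. The 3 Utx KO libraries were close together, and all lay at least 34 CPM below the lowest WT library. The mean went from 201 ± 11.6 to 150.2 ± 4.55 CPM (SD, n = 3), a fitted ratio of 0.750 (95% interval 0.672 to 0.837). On the log2 scale this is −0.41 (limma adjusted p = 0.000552, SE 0.077), and the call held under all 15 alternatives, with adjusted p from 0.000206 to 0.00663. The 250 bases before its RefSeq start (chr4:126556730-126556979, GRCm38.p6, forward strand) hold 2 CCAAT motifs on the opposite strand, in capitals. The E2F match shown earlier lies after the start.

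Clspn: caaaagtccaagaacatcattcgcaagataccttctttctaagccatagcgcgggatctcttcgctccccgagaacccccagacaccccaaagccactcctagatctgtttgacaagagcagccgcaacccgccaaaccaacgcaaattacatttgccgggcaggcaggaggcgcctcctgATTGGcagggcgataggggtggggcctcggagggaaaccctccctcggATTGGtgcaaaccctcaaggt

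The partners of claspin did not pass. Timeless and Tipin form the complex that keeps the helicase and polymerases together. They were fitted at 0.12 and −0.10 (95% intervals −0.072 to 0.32 and −0.31 to 0.10). Chek1, the kinase that claspin serves, was at 40.2 ± 3.69 CPM (WT) and 35.9 ± 6.13 CPM (Utx KO) (SD, n = 3), with an interval of −0.48 to 0.15. Dtl, which directs Cdt1 to destruction during S phase, was fitted at −0.12.

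Newly made DNA is packed with histones, and none of the 3 genes for this passed. Slbp, which binds histone messenger RNA, was at 103, 101 and 94.1 CPM (WT) and 79.4, 78.2 and 87.1 CPM (Utx KO). Groups did not overlap, and the log2 fold change of −0.28 (95% interval −0.48 to −0.082) had a limma adjusted p of 0.0656. The chromatin assembly factor subunits Chaf1a and Chaf1b were at 66.0, 67.3 and 69.5 CPM (WT) and 65.5, 70.3 and 67.3 CPM (Utx KO), and at 35.6, 35.0 and 31.7 CPM (WT) and 40.1, 36.6 and 29.6 CPM (Utx KO), respectively. They were fitted near 0, at 0.0020 and 0.045 (95% intervals −0.22 to 0.22 and −0.27 to 0.36).

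Within groups the 54 genes varied little more than read sampling gives. The chi-square of their reads per degree of freedom was 1.18 among WT and 1.36 among Utx KO libraries, where sampling alone gives about 1. The median coefficient of variation was 6.02% in WT and 7.67% in Utx KO. It was highest for Rpa3 in both groups (39.9% and 35.8%) and lowest for E2f1 in WT (0.734%) and Gins1 in Utx KO (1.38%).

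Further replication genes, 118 tested genes in 5 lists (Mms22l is in 2 of them), gave 7 falls and 2 rises, or 7.63% called against 10.8% of all genes. Their median log2 fold change was −0.029, and 55.1% were fitted below 0. Of 13 origin and firing genes, 2 fell (15.4%, where 5.51% of all genes tested fell). Rif1, which restrains origin firing, went from 330.3 ± 23.3 to 256 ± 24.4 CPM (SD, n = 3). Topbp1, an activator of Atr, fell by 0.28 on the log2 scale (limma adjusted p = 0.00123 for Rif1 and 0.0295 for Topbp1). Of 20 fork and clamp genes, Rnaseh2b, which helps remove ribonucleotides from DNA, fell by 0.47 (limma adjusted p = 0.0136). Of 37 checkpoint and recombination genes, E2f3 and the recombination motor Rad54l (−0.41, limma adjusted p = 0.0216) fell, which is 5.41% of that list. None of 15 chromatin replication genes passed (in limma, 3 had an unadjusted p under 0.05, as had 2408 of all 10590 genes tested).

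The 34 nucleotide synthesis genes split, with 2 rises and 2 falls and 11 fitted below 0. The rises and the falls are 5.88% each, against 5.28% and 5.51% of all genes tested. Samhd1, which breaks down deoxynucleotides, was at 323, 307 and 278 CPM (WT) and 223, 225 and 224 CPM (Utx KO). All Utx KO libraries lay below all WT libraries (−0.43, limma adjusted p = 0.000105). Shmt1, an enzyme of the folate cycle, fell too (−0.47, limma adjusted p = 0.0422). The nucleotide kinase Cmpk1 rose by 0.47 on the log2 scale (limma adjusted p = 0.0340). Of the 8 further genes named here, Rif1 and Samhd1 kept their calls under all 15 alternatives. The other 6 each lost it under 4 to 6 of them, with DESeq2 and with WT replicate 2 left out in every case, and the highest adjusted p per gene ran from 0.104 (Rnaseh2b) to 0.287 (Shmt1).

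Genes of the phases beside S phase are given for scale. Among 50 G2 and mitosis genes, 2 rose and 3 fell (10.0% called, against 10.8% of all genes tested), and their median was 0.015. By direction, 4% rose and 6% fell, against 5.28% and 5.51% of all genes, so these counts are near the background. The mitotic kinase Plk1 rose from 269 ± 7.55 to 359 ± 14.2 CPM (SD, n = 3), and Cdc20, an activator of the anaphase-promoting complex, by 0.32 on the log2 scale (limma adjusted p = 4.68e-05 and 0.0178). Smc2 of condensin, the kinetochore motor Cenpe and the checkpoint kinase Bub1 fell. Plk1 kept its call under all 15 alternatives, whereas the other 4 lost theirs under 1 to 5 of them, always when WT replicate 2 was left out (highest adjusted p 0.0554 for Smc2 to 0.218 for Bub1). The list's summed level was 13570.4, 13474 and 13317 CPM (WT) and 12658, 13767 and 14135 CPM (Utx KO). Utx KO replicate 1 was lowest and the other Utx KO libraries were above all WT libraries, so these groups overlapped. The same library was also the lowest of the 6 for the sum of the 54 replication genes. The difference between this list and the 54 genes was not tested.

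**Figure D4:**
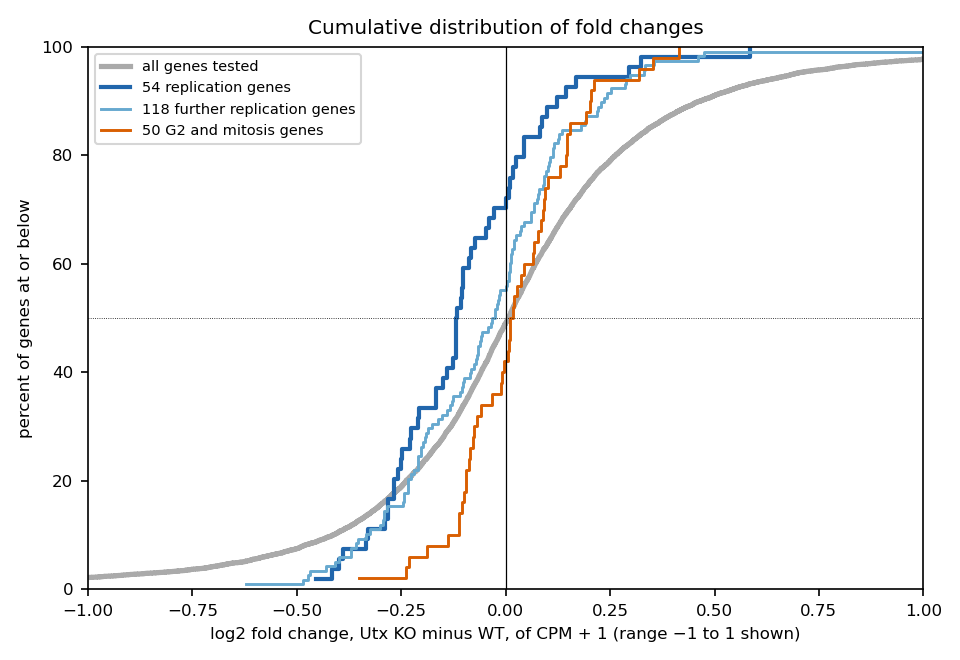
Percent of genes (y axis) at or below each log2 fold change (x axis, Utx KO minus WT) for all 10590 genes tested, the 54 replication genes, 118 further replication genes and 50 G2 and mitosis genes. The curve of the 54 genes crosses 50 percent at −0.12, and that of the G2 and mitosis genes at 0.015.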

How the data were processed

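The authors deposited 1 table per library with CPM values (reads of a gene scaled to 1000000 reads over the listed genes), per the file headers and column totals. Libraries read the 3' ends of transcripts (QuantSeq), and GRCm38 and mm10 are the builds stated, per the submitters' processing notes. Not given in the sources used here were the aligner, the counter, the strand setting, filters and any batch. A 3' library gives about 1 tag per transcript, so levels are not per length and can move with the transcript end used. Dividing by the value of 1 read gave whole reads for 100% of values above 0 (tolerance 0.001).

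Symbols were found for 25600 of 25655 identifiers. Genotypes were compared with limma-trend (limma 3.58.1, R 4.3.3, two-sided) on log2(CPM + 1), with genotype as its only term, over the 10590 genes reaching 1 CPM in 3 libraries or more. The fit drew the variance of each gene toward a trend over all genes tested (23.8 total degrees of freedom). The pseudocount of 1 understates changes of low genes. P-values were adjusted by Benjamini-Hochberg over all genes tested (threshold 0.05). Alternatives on recovered reads were edgeR 4.0.16 (quasi-likelihood), DESeq2 1.42.0 and limma-voom. All 6 libraries, which the labels call biological replicates, were kept as separate samples. Replicates differed beyond sampling noise (1.33 to 2.00 for chi-square over degrees of freedom). This cannot show whether they were separate animals, since separate preparations of the same cells can differ too.

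The members, steps, lists and naming rule were chosen with earlier results of these data known. Every one of the 54 may be named. Full values are given for those called, for up to 2 rises and 2 falls in each step without a call, and for Mcm2, Pcna, Rrm2, Tyms, E2f1, Ccne1, Ccne2, Clspn and Cdc6. From other lists, called genes (at most 6 per list) are named, except 1 that is not reported here. Chtf8 was left out because 2 identifiers carry the symbol. Positions, exon overlaps and shared 3' ends come from GENCODE M21 (GRCm38). Shares of 3' pieces pool the ends of all protein-coding transcripts of a gene, whether or not an end was read. Exons of 3 of the 54 overlap a same-strand neighbour and those of 16 an opposite-strand one.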

Additional observations from a re-analysis of the deposited data

How the results depend on the processing

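Each of the 54 log2 fold changes was recomputed under 15 alternatives, 810 values in all. Of these, 762 kept their direction and their side of the threshold, 22 lost a call, 1 gained one and 25 turned direction. Clspn and Pcna kept their calls under all 15. With DESeq2, 2 of the 54 genes fell and 0 rose, and over all genes 241 rose and 310 fell, against 559 and 583 with limma. At an unadjusted p under 0.05, 8 of the 54 were lower and 1 higher with DESeq2. No count over all genes was taken with DESeq2 at that threshold, so this split is a description only. With limma, 16 of the 54 passed that threshold, as did 2408 of the 10590 genes tested. When 1 library was left out, 2 to 5 of the 54 genes fell (2 when WT replicate 2 or 3 or Utx KO replicate 2 was omitted, 3 when Utx KO replicate 3 was) and 0 to 1 rose (0 when WT replicate 3 or Utx KO replicate 1 was omitted). Over all genes, 365 to 477 rose and 382 to 579 fell, the lowest counts without WT replicate 2. The median of the 54 stayed below 0 in all alternatives, from −0.13 to −0.088. TMM factors moved the median of all genes from 0.0067 to −0.00024.

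None of the 25 turns carried a call, and all were in 9 genes fitted near 0. Rfc4 turned with edgeR (−0.015), DESeq2 (−0.017) and limma-voom (−0.0042), and Chaf1a with TMM factors (−0.0054) and DESeq2 (−0.0048). With 1 library left out, log2 fold changes ran from −0.18 to 0.054 for Orc1, −0.085 to 0.082 for Cdc45, −0.058 to 0.020 for Pola1, −0.087 to 0.12 for Prim2, −0.036 to 0.086 for Pold1, −0.12 to 0.14 for Rfc4, −0.0029 to 0.12 for Rpa1, −0.025 to 0.025 for Chaf1a and −0.048 to 0.16 for Chaf1b. The cause was not tested.

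The labels do not say whether replicate numbers pair the samples, and no shared deviation was seen between same-numbered libraries. Same-numbered deviations from the group means had r of 0.006, −0.0027 and −0.0096 across genes. With the replicate number as a block, 515 genes rose and 550 fell, and of the 54 genes 1 rose and 4 fell, Ccne1 having an adjusted p of 0.0509. Depth limits Rpa3, Rfc4, Gins1, Orc1 and Pole2 most, whose intervals are the widest of the 54.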

Other observations

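Lists of T cell quiescence genes and of G1 genes were measured beside the replication genes, both chosen with earlier results known. Of 14 quiescence genes, 6 rose and 2 fell, where 5.28% of all genes tested rose and 5.51% fell, and their median log2 fold change was 0.033. Klf2, a transcription factor of resting T cells, was at 43.9, 43.8 and 42.7 CPM (WT) and 92.1, 98.8 and 96.4 CPM (Utx KO), and its relative Klf3 at 30.4, 31.8 and 29.5 CPM (WT) and 45.7, 57.7 and 49.4 CPM (Utx KO). Both were higher in every Utx KO library (log2 fold changes 1.12 and 0.71, limma adjusted p = 7.88e-08 and 0.00109). Foxp1, Btg1, Btg2 and Pik3ip1 also rose, while Fbxw7, a ubiquitin ligase subunit that degrades cyclin E, fell by 0.51 and Foxo1 by 0.36 on the log2 scale (limma adjusted p = 0.000746 and 0.0200). For Btg1, 25.5% of the pieces of the 3' end occur in another gene model.

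Of 16 tested G1 genes, 2 rose and 2 fell (12.5% each), where 5.28% of all genes tested rose and 5.51% fell. The other 12, which include further Cdk inhibitors, did not pass. The Cdk inhibitors Cdkn1b (p27) and Cdkn2c (p18) rose, at 102, 101 and 125 CPM (WT) and 139, 151 and 145 CPM (Utx KO) and at 20.6, 19.8 and 19.7 CPM (WT) and 41.3, 25.7 and 32.7 CPM (Utx KO), respectively. Cdk6 and its partner cyclin D2 (Ccnd2) fell by 0.37 and 0.17 on the log2 scale. The limma adjusted p values of Cdkn1b, Cdkn2c, Cdk6 and Ccnd2 were 0.00428, 0.0149, 5.05e-05 and 0.00567, and each had groups that did not overlap. The counts of both lists are descriptions. Klf2, Klf3, Foxp1, Fbxw7, Cdk6, Ccnd2 and Cdkn1b kept their calls under all 15 alternatives. Btg1, Btg2, Pik3ip1, Foxo1 and Cdkn2c each lost theirs under 2 to 5 of them, DESeq2 included, with the highest adjusted p from 0.107 (Foxo1) to 0.237 (Btg1).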
